A study of Mus musculus with 2 samples.

Results

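Hox genes encode transcription factors with a homeodomain, a DNA-binding fold, and specify position along the body axis of the embryo. In the mouse they lie in 4 clusters, HoxA to HoxD on chromosomes 6, 11, 15 and 2, and genes at equivalent places in different clusters form paralog groups numbered 1 to 13. Low-numbered genes are used in anterior regions such as the hindbrain, and high-numbered genes in the posterior trunk, limbs and genital region. In spinal cord and in neural crest derivatives the active combination marks the axial level of a neuron, and clusters that are off are kept so by Polycomb proteins.

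The members were chosen by their annotation: every probe set of the array that is assigned to exactly 1 gene symbol of the form Hoxa, Hoxb, Hoxc or Hoxd plus a number. There were 48 such probe sets for 33 genes, of 18193 genes with a probe set of 1 symbol on the array. RefSeq lists 39 mouse Hox genes, and the others had no probe set of their own. HoxA and HoxB were each measured by 9 genes, HoxC by 7 and HoxD by 8.

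The cells were Neuro2a, an established mouse neuroblastoma line that grows as neuron-like tumour cells. They received either a non-specific control siRNA or an siRNA against Tmem132a (mKIAA1583), a gene for a single-pass membrane protein. Total RNA of each culture was hybridised to 1 Affymetrix array for the whole mouse genome, so each group is 1 culture of 1 cell line, treated with an siRNA for which no second sequence is described. No time after transfection is given in the sources used here. Since each group has a single array, replicate spread is unknown, no test was made and differences are described by size. The trimmed mean signal was 500.003 on each array, and median signals were 76.2 (control siRNA) and 81.7 (Tmem132a siRNA).

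One free-text label of the Tmem132a siRNA sample repeats the control wording, so its group was taken from the title. The targeted gene went with that title: the signal of Tmem132a was 1826 on the control array and 436 on the Tmem132a siRNA array, 23.9% of the control. Neuroblastoma and neuronal genes were present, 15 of 17 measured above the signal filter, which 10678 of all 18193 genes passed. Their summed signals were 59008 and 47244. Stmn2, a neuronal microtubule regulator, had signals of 16954 and 12985. Phox2a, a sympathetic lineage regulator, had signals of 5144 and 4666, and Hand2, another, 15243 and 13189, control siRNA first. The neurofilament genes Nefl and Nefm were dim, at no more than 27.4 on either array. No measured fibroblast marker (0 of 8) and no glial marker (0 of 3) passed the filter. Of the immune markers 1 of 5 did (Csf1r, 169.8 and 158.5), and of the epithelial and endothelial markers 1 of 6 (Epcam, 70.9 and 146.1). Epcam passed the filter only through the Tmem132a siRNA array. In bulk RNA, fewer cells with a transcript and less of it per cell cannot be told apart.

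Several microRNA genes lie inside the Hox clusters, and their sequences are shown because some of these genes sit beside Hox genes that were on. Transcripts of these microRNAs were not measured here. The lines below give the mature strand from RefSeq (GRCm38.p6), 5′ to 3′, with the seed, bases 2 to 8, in capitals.
mmu-miR-196a-5p: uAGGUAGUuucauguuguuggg
mmu-miR-196b-5p: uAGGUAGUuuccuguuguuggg
mmu-miR-10a-5p: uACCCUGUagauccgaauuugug
mmu-miR-10b-5p: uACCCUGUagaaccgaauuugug
mmu-miR-615-3p: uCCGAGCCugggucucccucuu

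The 196 microRNAs share 1 seed and the 10 microRNAs another. The copy of miR-196a made from Mir196a-2 lies at chr15:102973365-102973386 on the plus strand, between Hoxc10 and Hoxc9, which were both on in these cells. Its other copy, from Mir196a-1 at chr11:96265187-96265208 on the plus strand, lies between Hoxb13 and Hoxb9, neither of which was on. The miR-196b sequence is at chr6:52230129-52230150 on the minus strand between Hoxa9 and Hoxa10. Mir10a lies inside Hoxb3, Mir10b inside the annotated spans of Hoxd3 and Hoxd4, and Mir615 inside Hoxc5. Hoxb3, Hoxd3 and Hoxc5 were not on.

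A gene was counted as on when 1 of its probe sets had a signal at or above the median of all signals, 79.2, on both arrays. By that level 4 of 33 Hox genes were on (12.1%): Hoxc6, Hoxc9, Hoxc10 and Hoxa5. A further 2, Hoxc8 and Hoxa9, reached it on 1 array, and 27 on neither. Among all genes with a probe set of 1 symbol 55.6% were on, and among 38 olfactory receptor genes, a family hardly used outside the nose, 1 was (2.63%). The signal of 95% of olfactory receptor values was at or below 73.2, close under the level used. No Hox probe set was above the 75th percentile of all signals (458) on both arrays. Signal also depends on the probes, so the levels of different Hox genes were not ranked.

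**Figure D1:**
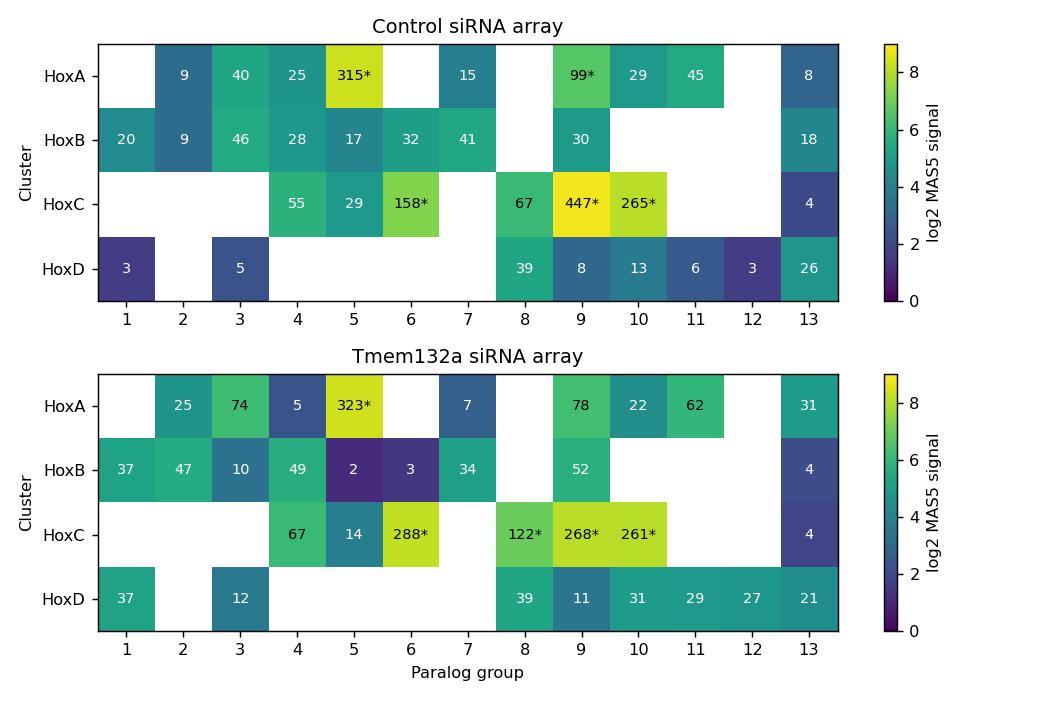
MAS5 signal of each measured Hox gene by cluster (rows) and paralog group (columns) on the control siRNA array (top) and the Tmem132a siRNA array (bottom); each gene is shown by its probe set with the highest mean signal, colour is log2 signal, an asterisk marks a signal at or above 79.2, and blank cells are places with no gene or with no probe set for 1 gene alone. The marked cells are Hoxc6, Hoxc9, Hoxc10 and Hoxa5 on both arrays, Hoxa9 on the control array only and Hoxc8 on the Tmem132a siRNA array only.

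HoxC was the cluster with most genes on. Its middle genes, groups 6, 8, 9 and 10, are 4 neighbours in the genome, and 3 of them were on with the fourth, Hoxc8, on in 1 array. The 2 genes on the anterior side were not: Hoxc4 had signals of 54.7 and 66.7, control siRNA first, and the 3 probe sets of Hoxc5 lay between 4.40 and 29.3 over both arrays. On the posterior side Hoxc11 and Hoxc12 were not measured alone, and Hoxc13, a hair and nail regulator, had signals of 4.10 and 3.70. By probe sets, 5 of 11 in HoxC were on both arrays, 1 on 1 array and 5 on neither.

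Hoxc6 acts in the cervical to thoracic region and is used by motor neurons at limb level. Its 3 probe sets had control signals of 166.0, 157.9 and 191.3 and Tmem132a siRNA signals of 213, 288 and 159.7. All 6 of these values were above the on level. The first 2 probe sets were higher with the Tmem132a siRNA and the third was lower, with log2 ratios of 0.36, 0.86 and -0.26, a mean of 0.32 and an SD of 0.56 over the 3 probe sets. The probe set with the largest of these ratios is of the x kind, which can also bind related transcripts.

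Hoxc8, a thoracic regulator, had 1 probe set, with a signal of 66.5 on the control array and 122 on the Tmem132a siRNA array. The first is below the on level and the second above it. Because the control signal is that low, its log2 ratio of 0.88 is no measured fold. Genes of similar signal, with a brightest probe set between 77.2 and 150, had ratios with an SD of 0.78 across 1353 genes, and 37.5% of these genes differed at least 1.5-fold.

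Hoxc9 sets thoracic motor neuron identity. Its signals were 447 (control siRNA) and 268 (Tmem132a siRNA), well above the on level on both arrays, and its log2 ratio was -0.74 (1.67-fold lower). Among the 1837 genes of similar mean signal the SD of the ratios was 0.46, and 18.5% of these differed at least 1.5-fold. Hoxc9 rests on 1 probe set, so its ratio has no second reading.

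Hoxc10, which acts at the lumbar level, had signals of 265 and 261, nearly equal on both arrays (log2 ratio -0.03, and 0.003 under quantile normalization). Within the HoxC block Hoxc6 therefore lay at 0.32 and Hoxc9 at -0.74, with Hoxc10 near 0. The median of the 4 genes was 0.15, but it includes Hoxc8, whose ratio is no measured fold.

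**Figure D2:**
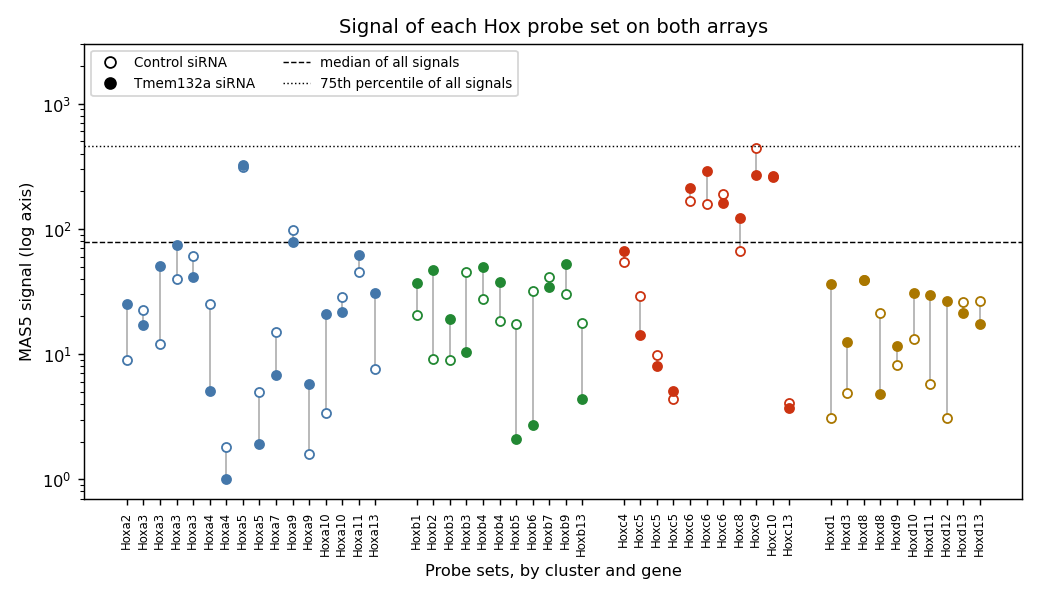
MAS5 signal (log axis) of all 48 Hox probe sets in order of cluster and gene; open circles are the control siRNA array, filled circles the Tmem132a siRNA array, and a grey line joins both values of a probe set. The dashed line is the median of all signals, 79.2, and the dotted line their 75th percentile, 458. The red points above the dashed line are Hoxc6, Hoxc9 and Hoxc10, and Hoxc8 on the Tmem132a siRNA array only.

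In HoxA 1 of 9 genes was on. Hoxa5, which is needed for lung and respiratory tract development, had signals of 315 and 323 by one probe set (log2 ratio 0.04) and of 5.0 and 1.90 by the other. The probe set that was on is of the x kind, and without such probe sets Hoxa5 was not on. Hoxa9, known for its part in blood stem cells and leukaemia, had signals of 98.6 and 78.0 by one probe set, just above and just under the on level, and of 1.6 and 5.80 by the other. The log2 ratio from the first was -0.34. Genes of similar signal, with a brightest probe set between 77.2 and 150, had ratios with an SD of 0.78.

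The other HoxA genes stayed under the level on both arrays. Hoxa11, a limb and reproductive tract regulator, had signals of 45.0 and 62.1. The 4 probe sets of Hoxa3 had control signals of 12.1 to 60.9 and Tmem132a siRNA signals of 17.2 to 74.5, and 2 of them were higher and 2 lower with the Tmem132a siRNA. Hoxa2, Hoxa4, Hoxa7, Hoxa10 and Hoxa13 lay between 1.0 and 30.6 over both arrays.

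Neither HoxB nor HoxD had a gene on. The 11 HoxB probe sets had control signals of 8.90 to 45.5 with a median of 20.4, and Tmem132a siRNA signals of 2.10 to 52.0 with a median of 34.5. Hoxb9 had signals of 30.3 and 52.0, and Hoxb7 of 41.0 and 34.5. The 10 HoxD probe sets had control signals of 3.10 to 38.9 with a median of 10.7, and Tmem132a siRNA signals of 4.80 to 39.0 with a median of 23.9. The 43 olfactory receptor probe sets had medians of 13.5 and 26.6, control siRNA first. The HoxB and HoxD medians are therefore not read as a change. Hoxd8 had signals of 38.9 and 39.0 by one probe set and of 21.2 and 4.80 by the other.

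**Figure D3:**
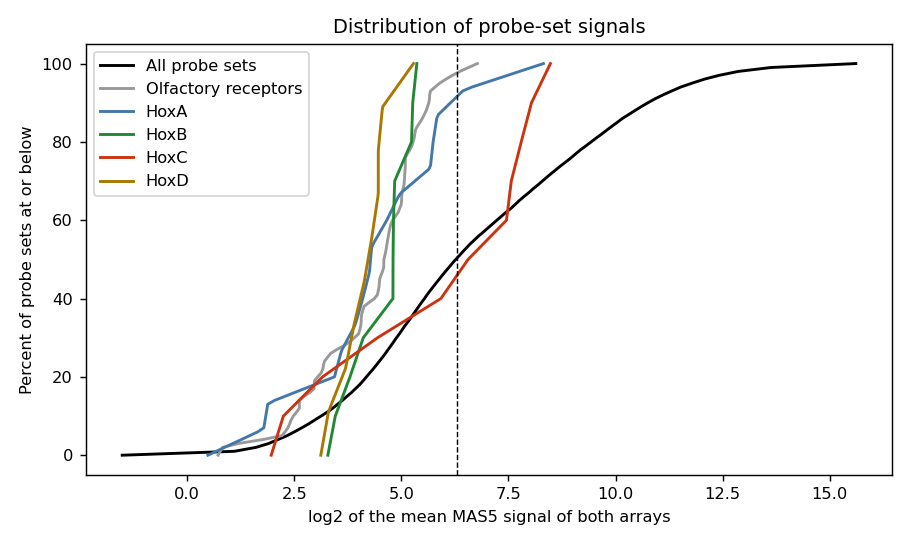
Cumulative distribution of the log2 mean MAS5 signal of both arrays for all probe sets, for 43 olfactory receptor probe sets and for the probe sets of each Hox cluster; the dashed line is the on level of 79.2. HoxB and HoxD lie left of that line over their whole range, as do most olfactory receptors, and HoxC crosses it near its middle.

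By paralog group, the genes on belonged to groups 5, 6, 9 and 10. Group 5 rests on the x probe set of Hoxa5 alone, and had no gene on without x, s and a probe sets. Of 13 measured genes in groups 1 to 5 only Hoxa5 was on, of 13 in groups 6 to 10 there were 3 on and 2 on 1 array, and of 7 in groups 11 to 13 none was. Group 9 was measured in all 4 clusters: Hoxc9 was on, Hoxa9 on 1 array, and Hoxb9 and Hoxd9 on neither, Hoxd9 with signals of 8.20 and 11.5. In group 10, Hoxa10 (at most 28.8) and Hoxd10 (at most 30.9) were not on, beside Hoxc10. In group 6, Hoxb6 had signals of 31.9 and 2.70, beside Hoxc6.

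Promoter sequences from RefSeq (GRCm38.p6) were at hand for Hoxa5 and Hoxa9 among the 6 genes that reached the on level. That of Hoxc4, at the anterior end of the HoxC cluster, was at hand too. They are shown because CpG-rich promoters are the usual place of Polycomb at Hox genes. Each line gives the 250 bases before the start site, 5′ to 3′ on the strand of the gene, with every CpG in capitals. Hoxa5 lies at chr6:52204588-52204837 on the minus strand, Hoxa9 at chr6:52227371-52227620 on the minus strand and Hoxc4 at chr15:103034145-103034394 on the plus strand.
Hoxa5: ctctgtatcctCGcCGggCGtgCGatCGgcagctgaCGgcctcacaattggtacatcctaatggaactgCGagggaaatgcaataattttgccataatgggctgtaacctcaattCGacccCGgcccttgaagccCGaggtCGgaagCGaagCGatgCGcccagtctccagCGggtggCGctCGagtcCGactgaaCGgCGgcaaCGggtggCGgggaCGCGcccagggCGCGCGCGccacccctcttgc
Hoxa9: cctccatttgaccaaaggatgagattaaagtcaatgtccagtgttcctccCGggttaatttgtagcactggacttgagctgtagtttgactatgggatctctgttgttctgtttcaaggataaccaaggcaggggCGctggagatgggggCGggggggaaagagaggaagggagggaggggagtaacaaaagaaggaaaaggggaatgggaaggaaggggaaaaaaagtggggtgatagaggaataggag
Hoxc4: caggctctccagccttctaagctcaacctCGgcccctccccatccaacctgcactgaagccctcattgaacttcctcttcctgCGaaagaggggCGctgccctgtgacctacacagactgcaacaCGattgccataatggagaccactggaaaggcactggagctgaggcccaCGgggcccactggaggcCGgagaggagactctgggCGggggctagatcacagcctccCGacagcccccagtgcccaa

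Hoxa5 had 28 CpG in this window, Hoxa9 3 and Hoxc4 8. The letters CG were counted, which read the same on both strands. As many or more were in 7.61%, 71.0% and 43.0% of 32851 mouse promoter windows of the same length. Over 24 windows of 22 Hox genes the count ran from 2 to 35 with a median of 12.5, against 6 for all windows. Some Hox genes that were not on had as many as Hoxa5 or more, with 35 for Hoxa13 and 31 for Hoxd13.

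The comparison of both arrays asks how the Hox genes differed when Tmem132a was targeted. A gene had a ratio where a probe set had a mean signal of at least 77.2, the median of all probe sets. This held for 6 Hox genes with 8 probe sets: the 4 of the HoxC block, Hoxa5 and Hoxa9. None was at least 2-fold higher and none at least 2-fold lower, where 2.1% and 2.44% of all 10678 genes were, 4.54% either way. At 1.5-fold, Hoxc8 was higher and Hoxc9 lower, where 8.82% and 9.11% of all genes were, 17.9% either way. Hoxc8 passed the filter only through the array where it was high and was under 1.5-fold with a pseudocount (0.47), so nothing is read from this count. In the 5072 genes with several probe sets past the filter, the ratios of probe sets to the same gene spread with an SD of 0.39, which measures the probes and not replicate cultures. The ratio of Hoxc9 (-0.74) was larger in size than that spread, as was that of Hoxc8 (0.88), which is no measured fold. Those of Hoxc6, Hoxa9, Hoxa5 and Hoxc10 were not. Hoxc9 rests on 1 probe set, and genes of similar mean signal had ratios with an SD of 0.46.

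The median log2 ratio of the 6 genes was 0.01, with 3 above 0 and 3 below, and that of all genes was 0.02. It was 0.15 over the 4 HoxC genes and -0.15 over Hoxa5 and Hoxa9. The ratio of Hoxa5 comes from an x probe set, and both HoxA genes have another probe set far under the filter. The HoxC value includes Hoxc8, whose ratio is no measured fold, so the cluster medians were not compared. HoxB and HoxD had no gene past the filter and so no ratio. The neuroblastoma and neuronal markers were mostly lower: 14 of 15 were below 0, where 48.2% of all genes were, with a median of -0.37 that was -0.21 by the brightest probe set and -0.20 with no filter. Among them were Ret at -0.67 and Isl1 at -0.51, while Alk was at 0.50. Their part in the Hox values was not tested.

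**Figure D4:**
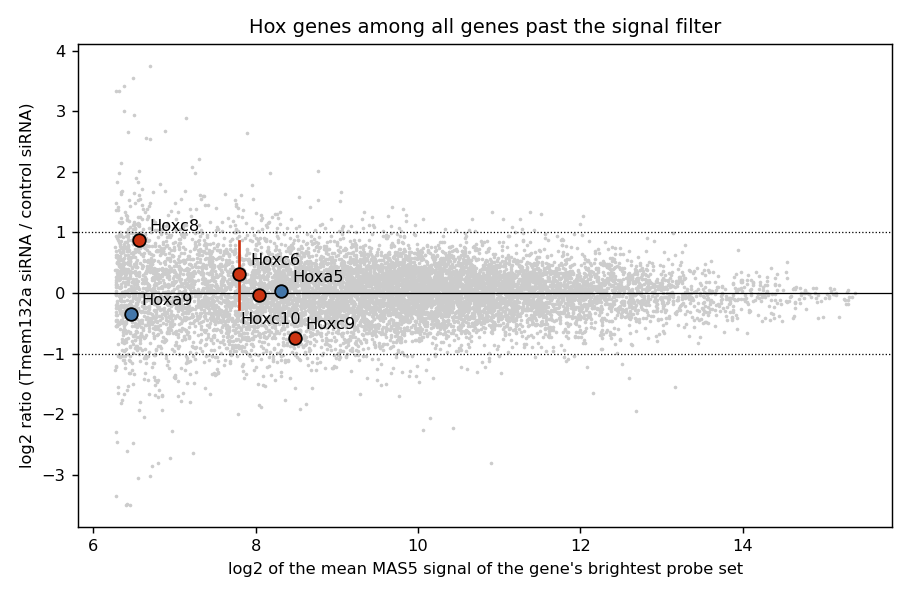
Log2 ratio of the Tmem132a siRNA over the control siRNA array against the log2 mean MAS5 signal of a gene's brightest probe set, for all 10678 genes past the filter (grey) and the 6 Hox genes (red HoxC, blue HoxA); the vertical bar spans the 3 probe sets of Hoxc6 and dotted lines mark 2-fold. All 6 Hox genes lie between the dotted lines.

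Probe sets under the filter were compared by direction, with no ratio. Of 40 such Hox probe sets 22 (55.0%) had the higher signal on the Tmem132a siRNA array, and of all 22518 probe sets under the filter 56.1% did. The median signal went from 17.5 to 21.0 for the Hox probe sets and from 19.9 to 24.0 for all. By cluster, 7 of 14 were higher in HoxA, 6 of 11 in HoxB, 2 of 5 in HoxC and 7 of 10 in HoxD. The low Hox probe sets thus differed between the arrays in about the same share as other low probe sets.

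Hox proteins bind DNA together with TALE homeodomain cofactors, the PBX, MEIS and PREP proteins. Of 10 measured cofactor genes 8 passed the filter, where 10678 of all 18193 genes did. Among the 8 cofactors 1 was at least 2-fold higher and 0 lower, where 2.1% and 2.44% of all genes past the filter were. This list and those below are short, so counts of 0 or 1 gene past 2-fold are not read as results. The median was -0.08, or -0.51 over the 5 genes left without x, s and a probe sets, a setting in which Meis3 has no value. Pbx3 (4565 and 3981) and Meis2 (1955 and 2204) had log2 ratios of -0.01 and -0.14, the latter 0.17 by the brightest probe set. Meis3 had signals of 88.8 and 194.5 and a ratio of 1.13, which was 0.70 with a pseudocount. Pbx2 lay at -0.85 (-0.72 with a pseudocount) with probe sets from -1.38 to -0.25. Tgif2, a related repressor, lay at -0.54 (-0.31 with a pseudocount) with probe sets from -0.90 to -0.17.

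Polycomb genes, which keep silent Hox clusters off, were mostly past the filter. Of 28 measured genes 27 passed the filter, where 10678 of all 18193 genes did. Among the 27 Polycomb genes 0 were at least 2-fold higher or lower, and the median was -0.11. Phf19, a partner of the H3K27 methyltransferase complex, had signals of 71.4 and 123 and passed the filter only through the second, with a ratio of 0.78 that was 0.42 with a pseudocount. Cbx8 and Cbx6, whose protein family binds the mark, had ratios of 0.55 (0.11 with no filter) and -0.55. The histone-binding subunits Rbbp4 and Rbbp7 had ratios of -0.11 and 0.09, and Ezh2, the methyltransferase itself, went from 4761 to 3720 (-0.36). The opposing Trithorax proteins and H3K27 demethylases had 19 of 19 past the filter, 0 at least 2-fold either way, and a median of -0.004. Psip1 lay at -0.62 with probe sets from -1.06 to -0.20, Kmt2d at -0.45 and Rbbp5 at 0.44, while Ash2l and Dpy30 were at -0.004 and -0.01.

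Retinoic acid turns on Hox genes in order along the embryo, and its pathway was mostly dim here. Of 21 measured genes of that pathway and other upstream regulators 7 passed the filter, where 10678 of all 18193 genes did. Among the 7 listed genes 0 differed 2-fold, and the median was 0.13. The retinoic acid receptor genes Rara (62.1 and 50.9), Rarb (31.9 and 45.0) and Rarg (93.0 and 46.2) were under the filter. By its brightest probe set Rarg was above the on level on the control array only. The caudal genes Cdx1, Cdx2 and Cdx4, direct activators of posterior Hox genes, were under it too. The retinol importer Stra6 had signals of 76.4 and 130.3 and passed the filter only through the second, with a ratio of 0.77 that was 0.43 with a pseudocount. The retinoid X receptor gene Rxrb (1174 and 818) had a ratio of -0.52, which was -0.48 with a pseudocount. The retinoic acid degrading enzyme Cyp26b1 (139.7 and 97.6) had a ratio of -0.52, which was -0.31 with a pseudocount. Ctcf, an insulator protein that separates active and silent parts of Hox clusters, lay at 0.13, and at -0.12 by its brightest probe set.

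Other genes of the homeobox class that holds Hox were mostly off. Of 21 measured ParaHox and related genes 4 passed the filter, where 10678 of all 18193 genes did. Among the 4 listed genes 1 was at least 2-fold higher and 0 lower. Their median of -0.49 was -0.04 with no filter and -0.07 with a filter at the 75th percentile. Dlx2, a forebrain and neural crest regulator, had signals of 569 and 540.3 (-0.07). Dlx1 went from 293 to 157 (-0.91, and -0.66 with a pseudocount). Msx1 lay at -0.91 (148.6 and 78.9), which was -0.53 with a pseudocount. Gbx1, the gene counted as 2-fold higher, had signals of 58.3 and 121. It passed the filter only through the array where it was high, and its ratio of 1.06 was 0.54 with a pseudocount. Evx1 and Evx2, which flank the posterior ends of HoxA and HoxD, were under the filter, with no signal above 58.9.

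Genes that lie around the 4 clusters were mostly on. This held for 20 of 27 measured neighbours, beside 4 of 33 Hox genes and 55.6% of all genes, and 20 passed the filter with a median of -0.02 and 0 at least 2-fold either way. Next to HoxC, Cbx5 (4389 and 3659), Hnrnpa1 (5482 and 6137) and Smug1 (961 and 819) were on, and so was Calcoco1 (254 and 304) on its other side. Mtx2 and Lnpk, which flank HoxD, were on with 3017 and 3432 and with 2064 and 1841. Among the neighbours not on were Nfe2 (5.10 and 7.10), Skap1 (38.2 and 17.4) and Skap2 (80.3 and 64.2). The largest ratios among the neighbours were those of Snx11 near HoxB (-0.67), Ttll6 (0.54) and Copz1 (0.34, but -0.31 with no filter). The brightest, the ATP synthase genes Atp5g3 and Atp5g2, lay at -0.04 (0.04 by quantile normalization) and -0.17 (0.34 with no filter). Of 5 further factors that bind Hox proteins or keep them in check, 5 passed the filter with a median of -0.21, among them Gmnn, the gene for geminin, at -0.24, Crebbp at -0.27 and Hipk2 at -0.21 (0.02 with no filter). The probe sets of Hipk1 disagreed, from -0.46 to 0.89 with a mean of 0.27, and its brightest lay at -0.46.

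**Figure D5:**
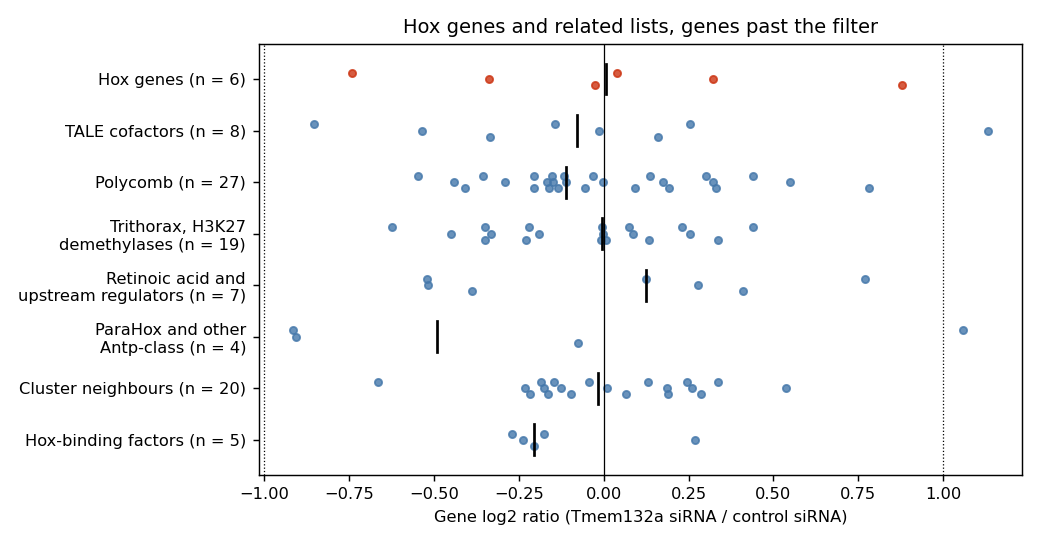
Gene log2 ratios, Tmem132a siRNA over control siRNA array, of the Hox genes (red) and of related lists (blue) past the signal filter; each point is a gene, the black bar is the median of the list, and dotted lines mark 2-fold. The medians lie near 0 except for the 4 ParaHox and related genes at -0.49, and 1 TALE cofactor and 1 related gene lie past 2-fold.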

How the data were processed

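The authors deposited 1 MAS5 signal intensity, not logged, for each probe set, per the submitters' processing notes. The MAS5 version and scaling target are not given in the sources used here. The arrays were brought to a common 2% trimmed mean. Of 45101 probe sets 64 controls were left out. Names came from GEO's platform annotation (34945 probe sets with 1 symbol, 932 with several, 9160 unlisted), and 0 symbols changed for the 34741 found by Entrez ID in the GRCm38.p6 gene table. Signals under the 20th percentile (14.5) were set to it before log2. A gene's log2 ratio is the mean over its probe sets past the filter. No test was possible with 1 array per group. Detection calls were not used. Probe sets ending in x, s or a can bind several transcripts. Named were all Hox genes past the filter and, of each list, the 3 largest ratios and 2 brightest genes; others are examples, chosen after their values were seen. Members and lists were chosen with earlier results of these data known. Python 3.11.15, numpy 2.4.6, pandas 2.3.3, statsmodels 0.14.6 and matplotlib 3.10.9 were used. The procedure was tested on simulated data with larger changes than any Hox ratio, planted in genes brighter than most Hox genes with a ratio. That test does not cover the Hox ratios. Alternatives were other scalings, filters, floors, on levels and choices of probe sets.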

Additional observations from a re-analysis of the deposited data

How the results depend on the processing

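With no signal filter, HoxB had a median of -0.25 and HoxD one of 0.44. Of 33 Hox genes 5 were then at least 2-fold higher (Hoxa13, Hoxb2, Hoxd1, Hoxd10 and Hoxd11) and 1 lower (Hoxb6). Of all 18193 genes 7.19% were higher and 4.84% lower at this setting. Every signal of the Hox genes counted here was at or under 46.9 on both arrays, so nothing is read from these counts. In the 9 other settings both counts were 0, but with a filter at the 75th percentile no Hox gene was left to count. With the on level at the 75th percentile, 0 Hox genes were on. In the 8 other settings 3 to 6 were, with Hoxc6, Hoxc9 and Hoxc10 in each. Hoxa5 was lost without x, s and a probe sets, Hoxa9 joined at the olfactory receptor level, and Hoxa9 and Hoxc8 joined where 1 array or the mean sufficed. Of the cluster medians, HoxC, with Hoxc8 included, ran from 0.00 to 0.42, and HoxA from -0.34 to 0.06. Hoxc9 ran from -0.75 to -0.60. Hoxc8 fell to 0.47 with a pseudocount, and Hoxc6 was 0.86 by its brightest probe set and 0.05 without x probe sets. Meis3 and Gbx1 were under 2-fold with a pseudocount, and Gbx1 also by quantile (0.98) and loess (0.96) scaling. List medians near 0 changed sign in some settings: TALE cofactors (0.07; -0.51 if x, s and a probe sets are left out) and Polycomb genes (0.01) with no filter, retinoic acid genes (-0.30) and cluster neighbours (0.12) by the brightest probe set. The settings for related lists were added after seeing the data. No paired analysis was possible because each group has 1 array. Signals near the on level limit what can be called.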

Other observations

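Probe sets assigned to more than 1 Hox gene, and to transcripts antisense to Hox genes, belong to no comparison above. Those shared by Hoxd3 and Hoxd4 had signals of 48.0 and 7.20 and of 8.0 and 1.70, control siRNA first, and the one shared by Hoxb7 and Hoxb8 had 5.10 and 5.50. None of them reached the on level. The brightest probe set of Hoxa11os had signals of 10.5 and 60.4, that of Hoxd3os1 67.4 and 7.60, and that of Hoxb5os 7.0 and 7.20, all under the on level.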
